A study of Mus musculus with 9 samples.

Results

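The genes described here are 50 genes of the G2 and M phases of the cell cycle: the mitotic cyclins with CDK1 and its phosphatases, the mitotic kinases, the spindle checkpoint, the kinetochore, the spindle and its motors, the machinery of anaphase and cytokinesis, condensin I with topoisomerase II, and 2 transcription factors of these genes. They were taken by gene name from the deposited count table, which held all 50 among its 15384 protein-coding genes. The rule picks rows by name and not by value, though the list of names was drawn up with earlier results of these data known. MyC-CaP is a cell line from a prostate tumor of a mouse with a MYC transgene. The cells were starved in medium without serum and calcium, then given 100 ng/mL of recombinant asporin (ASPN), which is secreted by stromal fibroblasts in tumors, and their RNA was sampled at 3 times (0, 12 and 24 hours) in 3 replicate libraries each, 9 in all. The sample labels name ASPN as the treatment of every library, those of time 0 included, and none of the 9 was kept for 12 or 24 hours without ASPN, so ASPN and the hours in culture cannot be told apart in any comparison below. All 9 libraries come from 1 cell line, the replicates being wells plated side by side that the labels call biological replicates, and p-values measure only the spread between such wells.

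As a cell leaves G2, CDK1 bound to the A-type and B-type cyclins drives it into mitosis, and Polo-like and Aurora kinases build the spindle. Kinetochores join the chromosomes to microtubules while the spindle checkpoint holds back the anaphase-promoting complex, an E3 ubiquitin ligase whose activator CDC20 then lets separase part the chromatids. Most of these genes are transcribed late in each cycle under a shared control, in which the DREAM complex represses them in resting cells and the MYBL2-MuvB and FOXM1 factors activate them in cycling cells. The summed mRNA of the group therefore goes with the share of dividing cells, and in bulk RNA a smaller share of cells in G2 and M cannot be told apart from less RNA per cell.

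Counts on the table's genes totaled 41881191 to 52993821 per library, and a gene with 3 counts is thereby at 0.0566 to 0.0716 CPM, the count scaled to a common library size. CPM values below are scaled by TMM factors, which set the libraries to a common level for the bulk of genes, and each member had far more than 3 counts in every library. For time 0 these factors spanned 1.04 to 1.07 and for 12 hours 1.04 to 1.05, whereas the 24-hour libraries had 0.899 to 0.914. Mitochondrial mRNAs took 2.6% to 2.71% of the counts in time 0 libraries, 2.63% to 2.85% after 12 hours and 0.113% to 0.203% after 24 hours, and this fall coincides with every change at 24 hours reported below. Its part in them was not tested. Of the epithelial and prostate markers, Foxa1 was at 233 ± 7.27 CPM at time 0, Krt19 at 89.4 ± 13.4 and Krt8 at 25.5 ± 1.08 (mean ± SD, n = 3). Epcam, Cdh1 and Cldn7 had at most 3 counts in any library of time 0, so these defining markers are all but absent from cells labeled as epithelial-like. Of the 7 leukocyte markers listed 4 were in the table and of the 4 endothelial ones 3, each list summed to at most 0.815 CPM in any library, and Cd3e and Cdh5 had 0 counts at time 0. Of 7 fibroblast markers 4 were in the table and summed to 9.09 to 14.1 CPM, nearly all of it Pdgfra. From time 0 to 24 hours Foxa1 stood at a log2 fold change of -1.36, while Krt19 (0.64) and Krt8 (0.58) went the other way. These shifts of single markers go with the 24-hour results, and their part in them was not tested either.

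The promoters of 6 members are shown because they hold, or lack, the sequence elements by which this group is known. TTTGAA is the core of the cell cycle genes homology region (CHR), which the MuvB core binds, and CCAAT is the box bound by NF-Y. Each line below gives the 150 bases that end just before the outermost annotated start of the gene, RefSeq or GENCODE (GRCm38.p6), read 5′ to 3′ on the gene's strand, with TTTGAA and CCAAT on either strand in capitals.
Ccnf, chr17:24251485-24251634, minus strand: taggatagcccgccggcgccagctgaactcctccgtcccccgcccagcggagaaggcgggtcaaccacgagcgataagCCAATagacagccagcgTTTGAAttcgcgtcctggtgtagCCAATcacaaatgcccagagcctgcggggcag
Cdk1, chr10:69352939-69353088, minus strand: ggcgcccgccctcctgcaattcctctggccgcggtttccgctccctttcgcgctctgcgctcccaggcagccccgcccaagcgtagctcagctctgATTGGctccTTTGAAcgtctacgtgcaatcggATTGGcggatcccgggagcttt
Cdc20, chr4:118437353-118437502, minus strand: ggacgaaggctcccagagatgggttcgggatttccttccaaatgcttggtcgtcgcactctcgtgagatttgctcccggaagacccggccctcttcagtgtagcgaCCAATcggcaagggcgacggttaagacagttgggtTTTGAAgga
Bub1, chr2:127831866-127832015, minus strand: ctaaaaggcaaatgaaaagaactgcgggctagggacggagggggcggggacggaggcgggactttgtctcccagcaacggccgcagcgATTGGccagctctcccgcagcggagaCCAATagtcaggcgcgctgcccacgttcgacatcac
Ncapg, chr5:45669769-45669918, plus strand: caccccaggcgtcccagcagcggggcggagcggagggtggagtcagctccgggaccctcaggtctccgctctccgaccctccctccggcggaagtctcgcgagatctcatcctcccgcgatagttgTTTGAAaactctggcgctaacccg
Ncaph, chr2:127133955-127134104, minus strand: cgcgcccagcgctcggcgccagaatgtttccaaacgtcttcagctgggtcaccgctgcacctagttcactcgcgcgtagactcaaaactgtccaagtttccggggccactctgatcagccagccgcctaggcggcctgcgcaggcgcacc

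Ccnf, Cdk1 and Cdc20 hold both elements in these stretches, Bub1 holds CCAAT alone, Ncapg holds TTTGAA alone and Ncaph holds neither. Where both starts differ, bases between them are not shown, and in Ccnf and Cdk1 they hold a further TTTGAA, 14 and 15 bases before the RefSeq start, and in Cdc20 a further CCAAT, 8 bases before it. RefSeq promoter windows, from 250 bases before to 50 after a start, were at hand for 41 of the 50 members, with 44 windows. TTTGAA stood on either strand in the windows of 29 of these 41 members (70.7%), against 15.0% of the 12003 genes of the count table that had a window. CCAAT stood in 30 of the 41 (73.2%), against 43.0%, and both elements in 25 (61.0%), against 6.27%. Ncapg counts there as holding both, since its longer window also has a CCAAT element. Neither motif contains the other, and a match of 5 or 6 bases is a description of the letters, not of a bound site. By the calls at 24 hours given below, TTTGAA stood in 8 of the 11 members with a window that were called higher (72.7%), in 1 of the 2 called lower and in 20 of the 28 not called (71.4%).

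Both later times were compared with time 0 and with each other, and any 2 of these 3 comparisons share 3 libraries. All 50 members passed the filter on low counts in each. To be called higher or lower, a gene needed an adjusted p (edgeR's quasi-likelihood test, Benjamini-Hochberg over all tested genes) no larger than 0.05 together with a fold change of at least 1.5, which is 0.585 on the log2 scale.

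After 12 hours with ASPN the mitotic genes stood almost where they were at time 0. No member was called higher or lower, by edgeR or by DESeq2, where 1.5% of the 11410 tested genes were called higher and 0.0964% lower. The log2 fold changes of the 50 ran from -0.18 (Ccnb2) to 0.12 (Kif23), with a median of -0.065 against -0.0049 over all tested genes, and 17 were above 0. At the adjusted p alone, without the 1.5-fold limit, 5 members were lower and 0 higher, against 3.47% of all genes lower and 6.85% higher, and 8 of the 50 members had an unadjusted p under 0.05, against 2437 of the 11410 genes, a larger share. These 5 were Ccnb1 and Ccnb2 (B-type cyclins, -0.15 and -0.18), Cdc20 (APC/C activator, -0.17), the chromokinesin Kif4 (-0.18) and the condensin subunit Ncaph (-0.15, edgeR adjusted p = 0.00479). None of the 5 passed in each of the 16 other fits (10 alternative settings and 6 without 1 library). Ncaph missed the threshold in 1 of them, without ASPN 12 h replicate 2 (edgeR adjusted p = 0.0536), and Ccnb1, Ccnb2, Cdc20 and Kif4 in 4 to 6 each, with adjusted p up to 0.205 in edgeR (Ccnb2). Spc25 (-0.17) and Cdc25c (-0.17), which were also among the 5 lowest, did not pass, nor did the 5 highest, Kif23, Mybl2, Plk4, Top2a and Bub1, at 0.070 to 0.12. The 3 libraries of 12 hours lay entirely below those of time 0 for 6 members (Ccnb1, Aurka, Kif4, Cdc20, Ube2c and Ncaph) and entirely above for 1 (Kif23), where 13.6% and 13.4% of all tested genes did so.

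Part of this small downward lean rests on single libraries. The library of time 0 replicate 1 was the lowest of its time for 47 of the 50 members, replicate 3 was the highest for 37, and at 12 hours replicate 2 was the lowest for 37, so the members moved together between replicates of 1 time. Without time 0 replicate 3 the median at 12 hours was -0.0027 with 25 members above 0, and without time 0 replicate 1 it was -0.11.

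Between 12 and 24 hours the group moved apart. At 24 hours against time 0, 14 members were called higher and 2 lower, and 34 were not called. Among the 11444 genes tested, 12.0% were called higher and 16.8% lower, and among the members 28% and 4%. The members called higher were Ncapg, Smc4, Bub1, Ect2, Ndc80, Kif23, Cenpe, Ttk, Smc2, Cdca8, Plk4, Ccna2, Anln and Spc24, and those called lower were Ccnf and Ncaph. The median log2 fold change of the 50 was 0.29, where that of all tested genes was -0.016, and 35 of the 50 were above 0. At the adjusted p alone, 32 members were higher and 13 lower, against 34.4% and 36.5% of all genes. The 24-hour libraries lay above all of time 0 for 30 members and below for 13, against 35.6% and 38.3% of all genes. The summed level of the 50 genes was 2260, 2443 and 2508 CPM at time 0, 2344, 2263 and 2401 at 12 hours and 3023, 2959 and 2980 at 24 hours. Abundant genes weigh most in this sum. Between the means of time 0 and 24 hours, Smc4 went from 157 to 338 CPM and Anln from 198 to 302. Ncaph went from 135 to 60.5 and Top2a from 223 to 191, and 15 of the 50 genes had a log2 fold change below 0. Whether the share of dividing cells changed was not tested.

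These counts depend on how the libraries are scaled. Scaled by library totals instead of TMM factors, 7 members were called higher and 8 lower, while the median of all tested genes itself moved to -0.24, with 698 genes called higher and 3008 lower. The member median was then 0.066, again above that of all genes. The 7 were Bub1, Cenpe, Ndc80, Kif23, Ect2, Ncapg and Smc4, and Ccnb1, Cdc25b, Plk1, Cenpf, Kif2c and Espl1 joined Ccnf and Ncaph among the lower ones. Without scaling factors the summed level was 2343 to 2660 CPM in the time 0 libraries, 2348 to 2507 in those of 12 hours and 2680 to 2763 in those of 24 hours, a smaller gap that still did not overlap. A scaling factor moves all genes of a library alike, so the distance between the highest and the lowest members is the same under both.

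**Figure D1:**
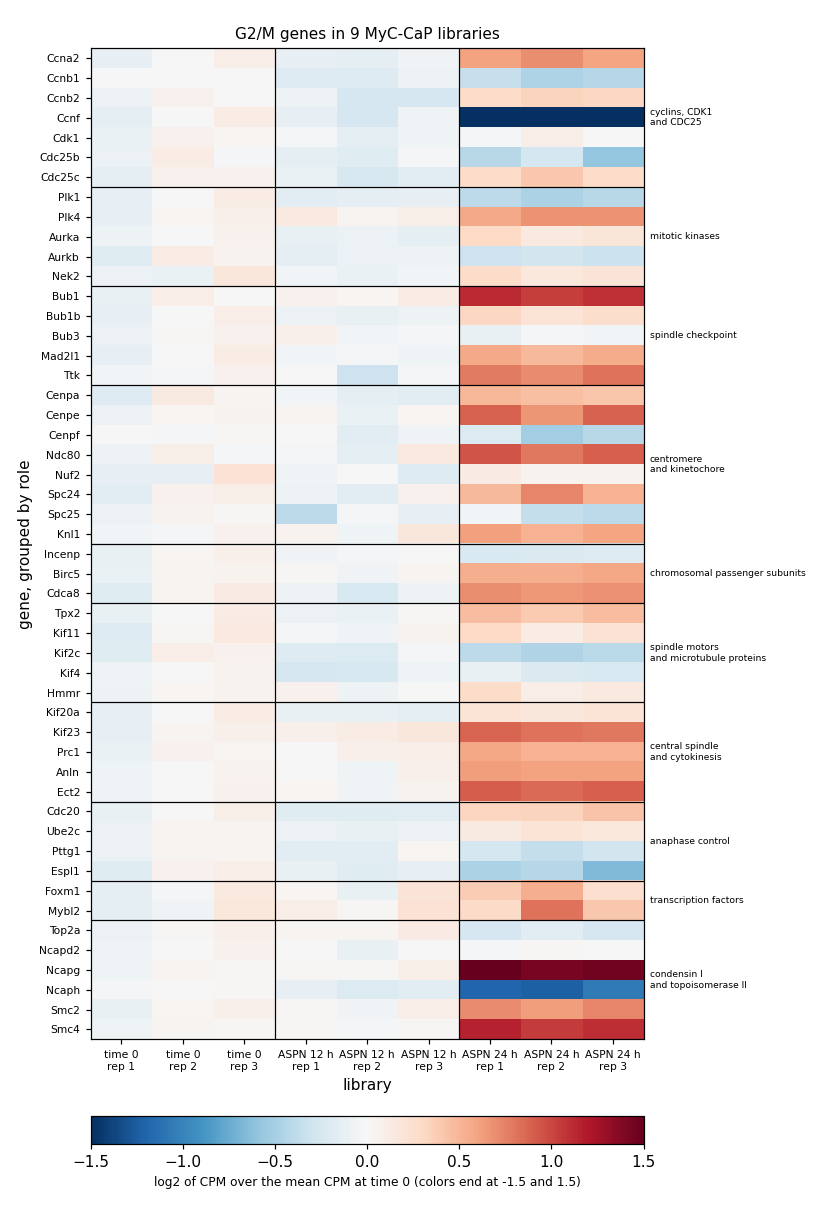
Rows are the 50 genes grouped by role and columns the 9 libraries; color gives the log2 of CPM over the mean CPM at time 0, red higher and blue lower. The 6 libraries of time 0 and 12 hours are nearly colorless, while at 24 hours Ncapg, Smc4 and Bub1 are deep red, Ccnf and Ncaph deep blue, and the 3 replicates look alike.

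**Figure D2:**
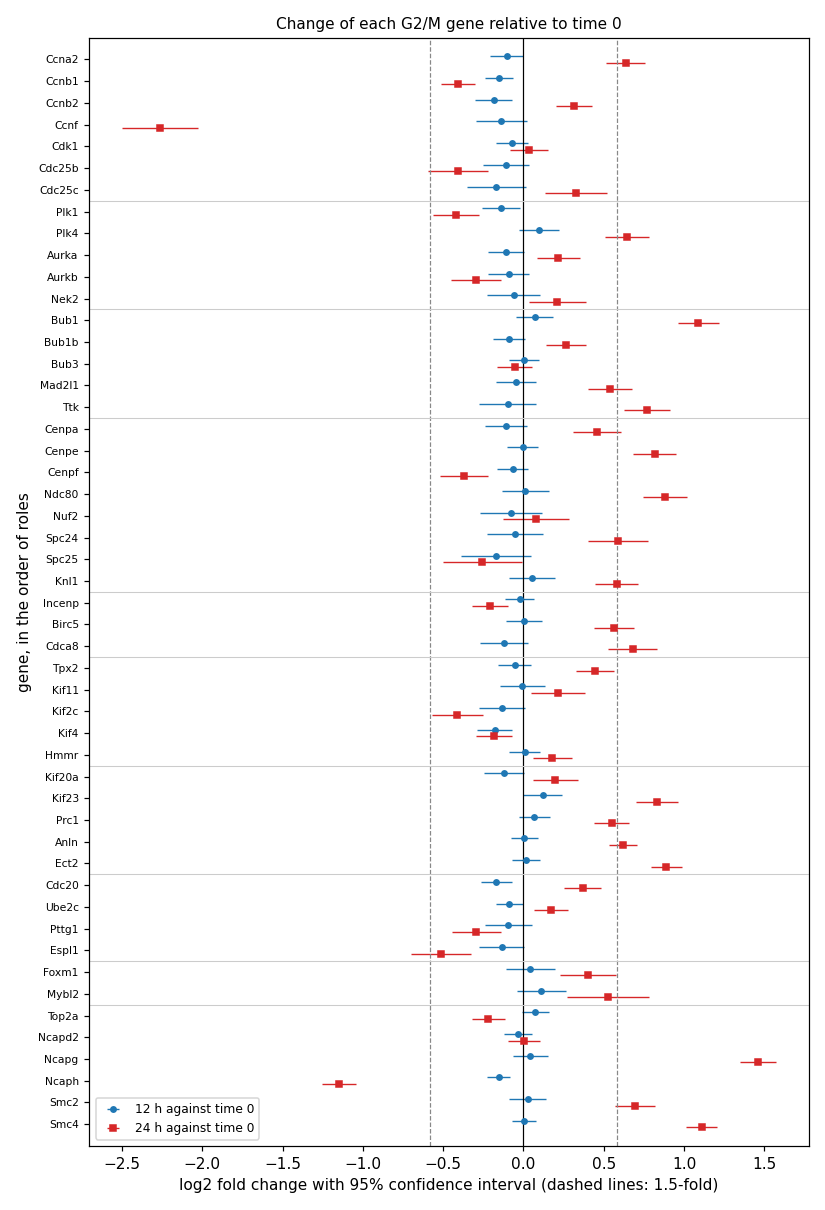
Points give the log2 fold change of each gene at 12 hours (blue circles) and 24 hours (red squares) relative to time 0, with 95% confidence intervals, and dashed lines mark 1.5-fold. At 12 hours every point lies between -0.18 and 0.12, and at 24 hours they spread from -2.26 (Ccnf) to 1.46 (Ncapg).

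Among the cyclins, CDK1 and its phosphatases, 1 of 7 was called higher (14.3%) and 1 lower. The roles hold 2 to 8 genes each, and their counts of calls stand against the 12.0% of all tested genes called higher and 16.8% called lower. Ccnf showed the largest change of any member. Its protein, cyclin F, is the substrate receptor of an SCF ubiquitin ligase and does not bind a CDK. Ccnf (ENSMUSG00000072082.7, chr17:24222198-24251484) was at 16.2, 17.9 and 19.1 CPM at time 0, 16.3, 14.9 and 17.1 at 12 hours and 3.98, 3.94 and 3.17 at 24 hours. All 24-hour libraries lay far below the rest, at 0.208 of the time 0 level (log2 fold change -2.26 ± 0.11 SE, edgeR adjusted p = 1.18e-09). Ccna2 encodes cyclin A2, which partners CDK2 in S phase and CDK1 in G2. It was at 61.0, 66.6 and 71.3 CPM at time 0, 61.0, 59.7 and 63.9 at 12 hours and 101, 107 and 99.8 at 24 hours. The 24-hour libraries stood above all others, 1.55-fold over time 0 (log2 fold change 0.64 ± 0.056 SE, edgeR adjusted p = 2.93e-07), and with library totals the log2 fold change was 0.41, short of the limit. About 12.5% of the exon bases of Ccna2 also lie in exons of Exosc9 on the other strand, and the strand setting of the counting is not stated.

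The B-type cyclins, which carry CDK1 through mitosis, went opposite ways within small changes. Ccnb1 was at 49.1, 49.1 and 49.4 CPM at time 0, 43.0, 42.9 and 46.6 at 12 hours and 38.6, 35.8 and 36.6 at 24 hours. The 24-hour libraries all lay below those of time 0, by less than 1.5-fold (log2 fold change -0.41 ± 0.049 SE, edgeR adjusted p = 6.36e-06). Ccnb2 instead was at 40.1, 44.6 and 42.8 CPM at time 0, 40.5, 35.6 and 35.8 at 12 hours and 51.4, 53.8 and 52.6 at 24 hours, its 24-hour libraries above the rest (log2 fold change 0.31 ± 0.052 SE, edgeR adjusted p = 0.000116). Cdk1 (ENSMUSG00000019942.13, chr10:69335146-69352938), the kinase of mitotic entry, was at 44.6, 49.9 and 48.5 CPM at time 0, 46.9, 43.4 and 45.5 at 12 hours and 47.2, 51.0 and 47.6 at 24 hours. Its libraries of 24 hours overlap those of time 0 and lie just above those of 12 hours, and the 95% confidence interval of the log2 fold change at 24 hours was -0.086 to 0.15, with a sign that turns under library totals (-0.19). Of the phosphatases that activate CDK1, Cdc25b was at 19.7, 22.8 and 20.6 CPM at time 0, 19.0, 18.6 and 20.7 at 12 hours and 15.7, 17.5 and 14.1 at 24 hours. Cdc25c, the least abundant member per length at time 0, was at 9.10, 10.5 and 10.5 CPM at time 0, 9.34, 8.50 and 8.89 at 12 hours and 12.2, 13.3 and 12.1 at 24 hours. Their log2 fold changes at 24 hours were -0.41 and 0.33, neither past 1.5-fold, and 12.7% of the exon bases of Cdc25c are shared with Gm3550.

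Of the 5 mitotic kinases only Plk4, which starts centriole duplication, was called. It was at 20.8, 23.0 and 23.8 CPM at time 0, 24.9, 23.2 and 24.0 at 12 hours and 33.5, 36.0 and 35.8 at 24 hours, higher at 24 hours without overlap (log2 fold change 0.64 ± 0.064 SE, edgeR adjusted p = 8.92e-07). Plk1, the Polo kinase of spindle assembly and mitotic entry, moved the other way without reaching 1.5-fold. It was at 31.3, 34.3 and 36.9 CPM at time 0, 30.5, 31.1 and 31.3 at 12 hours and 26.0, 24.6 and 25.7 at 24 hours (log2 fold change -0.42 ± 0.066 SE, edgeR adjusted p = 6.71e-05). Aurka, the Aurora kinase of the spindle poles, was at 24.2, 25.7 and 26.6 CPM at time 0, 23.5, 24.0 and 23.3 at 12 hours and 31.4, 28.3 and 29.1 at 24 hours. Its log2 fold change at 24 hours was 0.22 ± 0.062 SE, and -0.0048 with library totals. Aurkb, the Aurora kinase of the centromere and midzone, was at 29.1, 35.6 and 34.2 CPM at time 0, 30.1, 31.0 and 31.4 at 12 hours and 26.6, 27.2 and 26.4 at 24 hours (log2 fold change -0.30 ± 0.071 SE, edgeR adjusted p = 0.00217). The Aurora pair thus diverged a little, and within a library, where scaling cancels, the ratio of Aurka to Aurkb counts went from 0.778 ± 0.055 to 1.11 ± 0.071 (SD, n = 3). Nek2, a centrosome kinase, had a log2 fold change of 0.21 that turns to -0.010 with library totals.

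The spindle checkpoint keeps chromatids together until every kinetochore is attached, and 2 of its 5 genes were called higher. Bub1, a checkpoint kinase of the kinetochore (ENSMUSG00000027379.13, chr2:127801122-127831865), was at 26.8, 31.2 and 29.2 CPM at time 0, 30.3, 29.6 and 31.3 at 12 hours and 63.1, 59.7 and 62.1 at 24 hours. The 24-hour libraries were 2.13-fold above time 0 with no overlap (log2 fold change 1.09 ± 0.059 SE, edgeR adjusted p = 2.72e-09). Bub3, the adaptor that carries BUB1 and BUBR1 to the kinetochore, was at 63.1, 68.3 and 70.1 CPM at time 0, 70.5, 65.4 and 65.6 at 12 hours and 62.3, 66.0 and 65.1 at 24 hours (95% confidence interval of the log2 fold change at 24 hours -0.16 to 0.053). The count ratio of Bub1 to Bub3 accordingly went from 0.433 ± 0.021 at time 0 and 0.453 ± 0.024 at 12 hours to 0.957 ± 0.054 at 24 hours. Ttk, the kinase MPS1 that starts checkpoint signaling, was called higher (log2 fold change 0.77 ± 0.066 SE, edgeR adjusted p = 2.15e-07), and Mad2l1, the MAD2 protein that inhibits CDC20, came to 0.54, just under the limit against time 0. Bub1b, which encodes BUBR1, had 0.26.

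In the centromere and kinetochore, 3 of 8 genes were called higher and 0 lower. Ndc80 encodes the microtubule-binding subunit of the NDC80 complex and was at 21.6, 24.3 and 22.5 CPM at time 0, 22.6, 20.8 and 25.3 at 12 hours and 43.9, 39.4 and 42.3 at 24 hours. All 3 libraries of 24 hours exceed every earlier one, 1.84-fold over time 0 (log2 fold change 0.88 ± 0.063 SE, edgeR adjusted p = 3.96e-08). Its direct partner Nuf2 was at 13.7, 13.7 and 17.4 CPM at time 0 and 16.2, 15.5 and 15.5 at 24 hours (95% confidence interval -0.12 to 0.28, and -0.14 with library totals). The SPC24-SPC25 dimer at the other end of the complex was uneven too. Spc24 was called higher by a narrow margin (log2 fold change 0.59 ± 0.087 SE, edgeR adjusted p = 4.17e-05), a call that was lost without time 0 replicate 1 (0.53) and without ASPN 24 h replicate 2 (0.51), and in 5 of the 10 alternative settings, at 0.37 (library totals) to 0.58. Spc25 was at 7.58, 8.34 and 8.15 CPM at time 0, 6.10, 7.86 and 7.36 at 12 hours and 7.79, 6.25 and 6.10 at 24 hours, with a log2 fold change of -0.26 (adjusted p = 0.0574 in edgeR). The count ratio of Ndc80 to Nuf2 was 1.57, 1.78 and 1.30 at time 0, 1.58, 1.39 and 1.94 at 12 hours and 2.70, 2.55 and 2.73 at 24 hours, and that of Spc24 to Spc25 went from 1.85 ± 0.094 to 3.36 ± 0.64. Neither ratio overlaps between time 0 and 24 hours.

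Cenpe encodes a plus-end motor of the outer kinetochore and Cenpf a large coiled-coil protein beside it. Cenpe was at 54.4, 59.0 and 59.6 CPM at time 0 and 106, 91.5 and 106 at 24 hours (log2 fold change 0.82 ± 0.061 SE, edgeR adjusted p = 6.15e-08). Cenpf went the other way and was at 51.6, 50.4 and 51.8 CPM at time 0, 51.3, 45.4 and 49.6 at 12 hours and 44.6, 35.6 and 38.5 at 24 hours (log2 fold change -0.37 ± 0.070 SE, edgeR adjusted p = 0.00033). The ratio of their counts went from 1.13 ± 0.062 to 2.57 ± 0.19. Cenpa, the histone H3 variant that marks centromeres, was at 42.2, 52.6 and 49.5 CPM at time 0, 46.9, 43.5 and 43.1 at 12 hours and 67.9, 65.5 and 64.2 at 24 hours. Its libraries at 24 hours lie above the others, by less than 1.5-fold against time 0 (log2 fold change 0.46 ± 0.068 SE, edgeR adjusted p = 4.33e-05) and just past it against 12 hours (0.59, and 0.56 to 0.57 without 12 h replicate 2 or 3 or 24 h replicate 1). This call was also lost in 8 of the 10 alternative settings, with values of 0.36 (library totals) to 0.58. Knl1, the scaffold on which BUB proteins gather, was at 17.6, 17.9 and 18.9 CPM at time 0, 18.8, 17.3 and 20.4 at 12 hours and 27.8, 26.1 and 27.4 at 24 hours, which left it a hair below the limit (log2 fold change 0.58 ± 0.061 SE, edgeR adjusted p = 1.57e-06). DESeq2 and upper-quartile scaling carried Knl1 past the limit.

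Of the chromosomal passenger subunits that steer Aurora B, Cdca8 (borealin) was called higher (log2 fold change 0.68 ± 0.070 SE, edgeR adjusted p = 1.37e-06), Birc5 (survivin) came to 0.56 and Incenp, the scaffold, to -0.21. The Cdca8 to Incenp ratio of counts was 0.331, 0.350 and 0.361 at time 0, 0.342, 0.304 and 0.329 at 12 hours and 0.661, 0.630 and 0.644 at 24 hours. The libraries of time 0 and 12 hours share a range, and those of 24 hours lie above it.

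None of the 5 spindle motors and microtubule proteins was called. Kif11, the motor Eg5 that pushes the spindle poles apart, was at 28.7, 33.1 and 36.3 CPM at time 0, 32.0, 31.6 and 33.9 at 12 hours and 40.1, 35.4 and 38.1 at 24 hours (log2 fold change 0.21 ± 0.079 SE, edgeR adjusted p = 0.0264, and -0.0086 with library totals). Tpx2, which activates Aurora A on microtubules, had the highest log2 fold change of the 5 (0.44) and Kif2c, a depolymerase that corrects attachments, the lowest (-0.41). Kif2c was at 28.2, 34.3 and 33.3 CPM at time 0, 27.9, 27.6 and 31.6 at 12 hours and 24.3, 23.4 and 24.1 at 24 hours. Kif4, a chromokinesin of the chromosome arms and midzone, was at 46.1, 48.2 and 49.9 CPM at time 0, 40.4, 40.8 and 45.8 at 12 hours and 44.3, 41.3 and 40.9 at 24 hours. The lower level of Kif4 was already there at 12 hours. Its log2 fold change at 24 hours came to -0.18 and that of Hmmr to 0.18, the latter -0.043 with library totals. About 15.1% of the exon bases of Kif4 are shared with Pdzd11.

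Of the central spindle and cytokinesis genes, all 5 were above 0 at 24 hours and 3 were called higher. Ect2, the exchange factor that sets up the contractile ring, was at 59.8, 61.7 and 64.7 CPM at time 0, 63.5, 59.9 and 64.6 at 12 hours and 116, 112 and 116 at 24 hours (log2 fold change 0.89 ± 0.044 SE, edgeR adjusted p = 1.5e-09). Kif23, the MKLP1 motor of centralspindlin, was at 22.4, 25.1 and 25.7 CPM at time 0, 25.7, 26.2 and 27.4 at 12 hours and 44.6, 42.8 and 42.3 at 24 hours, far above time 0 at 24 hours and, at 12 hours, above it by a margin that rounding hides (log2 fold change 0.83 ± 0.061 SE, edgeR adjusted p = 4.96e-08). Anln, which encodes the ring scaffold anillin, went from 198 ± 8.02 to 302 ± 2.54 CPM (SD, n = 3, log2 fold change 0.62 ± 0.041 SE, edgeR adjusted p = 1.98e-08). Prc1, the microtubule bundler of the midzone, came to 0.55, and Kif20a to 0.20 (-0.023 with library totals). Of the exon bases of Kif20a, 29.3% are shared with Cdc23, the largest share of any member, and the effect on its value was not tested.

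Anaphase control held no called gene and pulled in both directions. Cdc20 was at 56.5, 61.3 and 64.6 CPM at time 0, 53.7, 53.6 and 54.5 at 12 hours and 76.2, 76.9 and 81.5 at 24 hours. Its libraries lay below those of time 0 at 12 hours and above them at 24 hours, with no overlap in either case (log2 fold change 0.37 ± 0.054 SE, edgeR adjusted p = 3.65e-05). Pttg1, which encodes securin, the inhibitor of separase, was at 17.4, 19.1 and 18.9 CPM at time 0, 16.4, 16.6 and 18.8 at 12 hours and 15.4, 14.4 and 15.3 at 24 hours (log2 fold change -0.29 ± 0.071 SE, edgeR adjusted p = 0.00224). Espl1, separase itself, had the lowest value among the members not called, at 22.3, 26.5 and 27.1 CPM at time 0, 23.5, 22.2 and 23.2 at 12 hours and 18.1, 18.9 and 16.0 at 24 hours (log2 fold change -0.51 ± 0.086 SE, edgeR adjusted p = 0.000118). With transcript length and GC content corrected for, the log2 fold change of Espl1 was 0.044, so its direction depends on this correction. Ube2c, the E2 enzyme of the APC/C, had 0.17 (-0.052 with library totals), and 22.8% of its exon bases are shared with Tnnc2.

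Both transcription factors were above time 0 at 24 hours without reaching 1.5-fold. Foxm1, a forkhead activator of G2/M genes, was at 31.8, 34.5 and 38.6 CPM at time 0, 35.6, 32.4 and 39.9 at 12 hours and 45.4, 51.0 and 41.5 at 24 hours (log2 fold change 0.40 ± 0.081 SE, edgeR adjusted p = 0.000602). Mybl2, the B-MYB subunit that joins MuvB, was at 20.1, 21.3 and 24.6 CPM at time 0, 23.5, 22.1 and 25.5 at 12 hours and 26.7, 38.8 and 29.0 at 24 hours. Relative to their mean, its 24-hour libraries spread more widely than those of other members, with replicate 2 well above replicates 1 and 3 (log2 fold change 0.53 ± 0.12 SE, edgeR adjusted p = 0.00132). After the length and GC correction both passed the limit, Foxm1 at 0.77 and Mybl2 at 0.78.

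Condensin I, the ring that compacts mitotic chromosomes, held calls in both directions, as the cyclins did. It consists of the SMC2 and SMC4 arms, the kleisin NCAPH that closes them, and the HEAT-repeat subunits NCAPD2 and NCAPG. Ncapg (ENSMUSG00000015880.13, chr5:45669919-45700546) was at 23.3, 25.2 and 24.8 CPM at time 0, 24.6, 24.6 and 25.9 at 12 hours and 68.9, 65.4 and 66.4 at 24 hours. Its 24-hour libraries stand 2.75-fold above time 0, the largest increase of the 50 genes (log2 fold change 1.46 ± 0.052 SE, edgeR adjusted p = 1e-10). Ncaph (ENSMUSG00000034906.15, chr2:127103809-127133954), its partner in the same ring, was at 133, 134 and 137 CPM at time 0, 124, 117 and 121 at 12 hours and 59.0, 57.7 and 64.8 at 24 hours. It was lower in all 3 libraries of 12 hours and far lower at 24 hours, at 0.451 of time 0 (log2 fold change -1.15 ± 0.049 SE, edgeR adjusted p = 4.11e-10).

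Smc4 was at 151, 162 and 159 CPM at time 0, 159.7, 154 and 159 at 12 hours and 351, 326 and 338 at 24 hours, 2.16-fold higher at 24 hours than at time 0 without overlap (log2 fold change 1.11 ± 0.045 SE, edgeR adjusted p = 2.77e-10). Smc2, the other arm, was at 35.6, 39.4 and 40.8 CPM at time 0, 39.1, 37.1 and 41.5 at 12 hours and 63.3, 59.5 and 64.1 at 24 hours (log2 fold change 0.70 ± 0.058 SE, edgeR adjusted p = 1.61e-07, and 0.47 with library totals). Ncapd2 was at 71.3, 74.8 and 78.5 CPM at time 0, 74.8, 69.4 and 74.5 at 12 hours and 73.3, 75.8 and 74.8 at 24 hours, overlapping at all times, with a 95% confidence interval of -0.099 to 0.10 for the log2 fold change at 24 hours (-0.22 with library totals, 0.35 after the length and GC correction). Top2a, the topoisomerase that untangles sister chromatids, was at 209, 225 and 234 CPM at time 0, 229, 229 and 244 at 12 hours and 187, 198 and 188 at 24 hours (log2 fold change -0.22 ± 0.047 SE, edgeR adjusted p = 0.000955). The count ratio of Ncapg to Ncaph was 0.175, 0.188 and 0.181 at time 0, 0.199, 0.210 and 0.214 at 12 hours and 1.17, 1.13 and 1.02 at 24 hours, 6.12-fold higher at 24 hours than at time 0. Ncapg and Ncaph kept their calls in all 10 alternative settings and in each fit without 1 library, and about 13.4% of the exon bases of Ncapg are shared with Lcorl on the other strand.

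**Figure D3:**
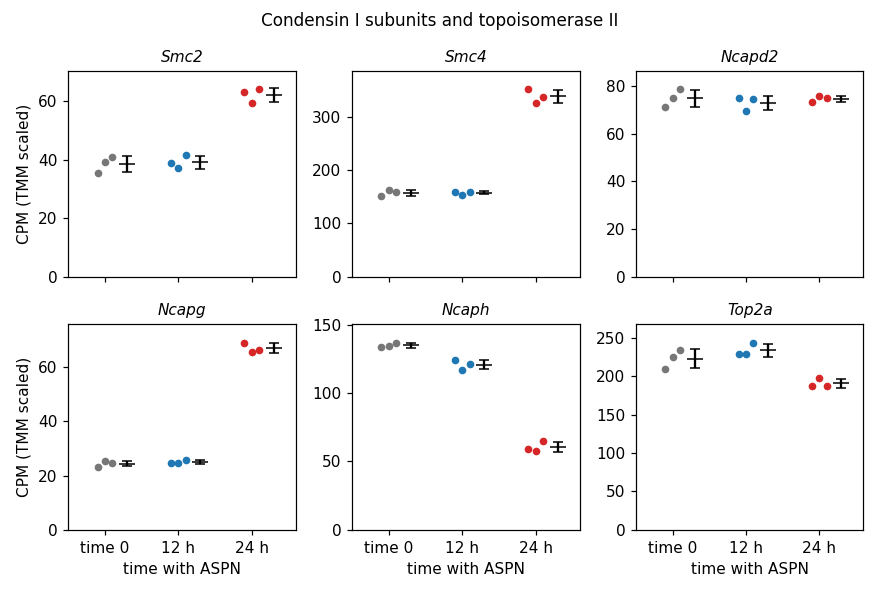
Each panel plots the TMM-scaled CPM of 1 gene in the 3 libraries of each time (colored points), with the mean and SD in black and an axis from 0. Ncapg, Smc4 and Smc2 stand higher at 24 hours, Ncaph lower, and Ncapd2 overlaps across times.

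The partner pairs above were picked after their values were seen and are a description. A ratio of 2 counts from 1 library does not depend on how libraries are scaled, and since counts are not per length it compares times, not the 2 genes. The widest shift of the pairs examined was that of Ccna2 to Ccnf, 3.74 ± 0.022 at time 0, 3.83 ± 0.15 at 12 hours and 28.1 ± 3.2 at 24 hours. The ratio of Ccnb2 to Ccnb1 went from 0.864 ± 0.046 to 1.42 ± 0.087 (SD, n = 3). Per kilobase of exon, the level of the members at time 0 ran from 2.04 CPM per kb (Cdc25c) to 32.5 (Cdc20), with a median of 7.18. At 24 hours it ran from 0.474 (Ccnf) to 65.0 (Smc4), with a median of 8.93. Ncaph was among the most abundant of the group at time 0, at 31.3 CPM per kb, and came to 14.1 at 24 hours.

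The direct comparison of 24 with 12 hours gave nearly the same members, and it shares the 24-hour libraries with the comparison above. There, 15 members were called higher and 2 lower, against 10.4% and 15.3% of the 11394 tested genes, with a median of 0.38. At the adjusted p alone 34 were higher and 12 lower, against 35.7% and 35.6%. Mad2l1 and Cenpa were called here and not against time 0, and Plk4 (0.57) the reverse. Ncapg (1.44), Smc4 (1.13) and Bub1 (1.04) were highest and Ccnf (-2.10) and Ncaph (-0.97) lowest, followed by Espl1, Cenpf and Cdc25b (-0.36 to -0.28). With library totals 8 members were called higher and 2 lower, where 485 of the 11394 genes were called higher and 2830 lower and the median of all genes was -0.22.

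A property of the sequence moved with these changes. Members with low GC content stood higher at 24 hours than those with high GC content. Split at the members' median of 47.3% GC, the 25 below it held 12 genes called higher and 0 lower, at a median log2 fold change of 0.58, and the 25 above it held 2 called higher and 2 lower, with a median of 0.20. Of all tested genes split at the same GC content, the 3910 below had 15.3% called higher and 11.5% lower with a median of 0.10, and the 7507 above had 10.3% and 19.6% with a median of -0.083, so all genes leaned the same way. The Spearman correlation of the log2 fold change with GC content was -0.48 across the 50 members and -0.15 across all 11417 genes with a value, given as descriptions since genes share libraries and are not replicates. At 12 hours it was -0.47 across the members and -0.11 across all 11383 genes, and with transcript length it was 0.48 and 0.073. At 24 hours the correlation with length was 0.095 and -0.24. Correcting each library for GC content and transcript length, fitted over all tested genes, left 14 members called higher and 2 lower at 24 hours, with 13 of the 16 calls kept. Plk4 (0.57), Cdca8 (0.56) and Spc24 (0.49) were then below the limit, and Birc5, Foxm1 and Mybl2 came in. The same correction changed the split over all genes to 1458 called higher and 1437 lower.

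**Figure D4:**
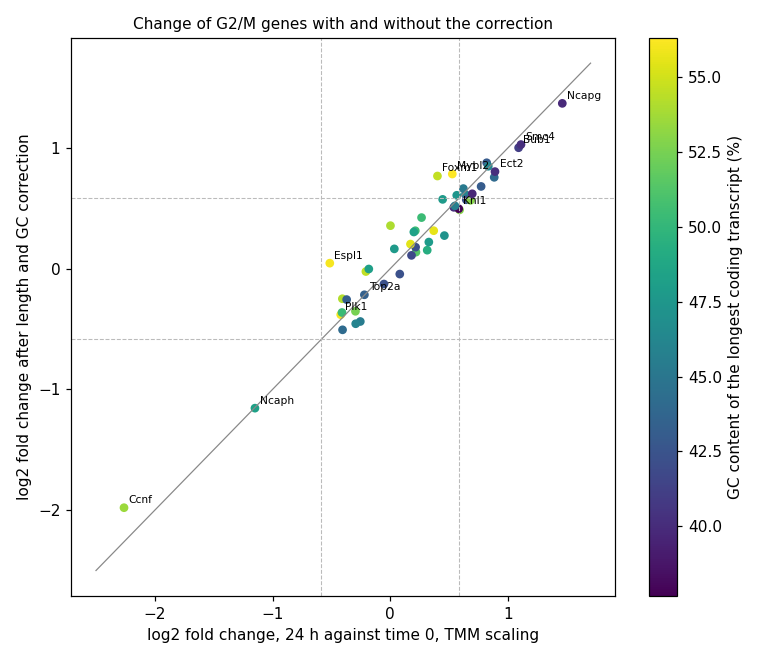
Each point is 1 of the 50 genes, with its log2 fold change at 24 hours against time 0 on the x axis, the same after the length and GC correction on the y axis, and its GC content as color. Most points lie near the diagonal; Espl1, Foxm1, Ncapd2, Ccnf and Mybl2, all rich in GC, rise the most above it, and Ccnf, Ncaph, Ncapg, Smc4 and Bub1 stay beyond the dashed 1.5-fold lines.

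The other genes of the pathway were read in 9 further lists from the same fits. At 12 hours no gene of any of them was called. At 24 hours their shares stand against 12.0% of all tested genes called higher and 16.8% lower. The inner kinetochore and MIS12 complex, on which the NDC80 complex is built, had 12 of 21 genes called higher (57.1%) and 0 lower, at a median log2 fold change of 0.74. Cenpu (1.22 ± 0.098 SE) and Cenpn (1.14 ± 0.10 SE) were highest, from 4.21 to 9.77 and from 6.29 to 13.8 CPM. The lowest of its called genes were Cenpm (0.74) and Nsl1 (0.72), and 2 of the 21 were below 0, the lower being Cenpc1 (-0.54, not called). Among the outer kinetochore partners 2 of 13 were called, both higher (15.4%, near the share of all genes): Ska1 (1.21), of the SKA complex that couples kinetochores to shortening microtubules, and Zwilch (1.04), of the ROD-ZW10 complex. The other spindle and cytokinesis genes had 3 of 26 higher, or 11.5%, about as many as among all genes (Cep55 0.92, Dlgap5 0.82 and Kif15 0.67) and 3 lower. The lower ones were the importin gene Kpna2 (115 to 30.8 CPM, -1.90), the citron kinase gene Cit (-0.82) and Numa1, a spindle pole organizer (-0.75).

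Of the 12 MuvB and pocket protein genes, 3 were called higher (25%): Lin54, the MuvB subunit that contacts the CHR (12.8 to 30.6 CPM, log2 fold change 1.27 ± 0.067 SE, edgeR adjusted p = 2.4e-09), Mybl1 (1.19) and E2f5 (0.63). Of 17 APC/C subunits and regulators, 3 were called, all higher, or 17.6% (Anapc15 0.84, Ube2s 0.76 and Anapc16 0.63). Cohesin, which holds sister chromatids together, had 4 of 13 higher, or 30.8%, and 0 lower (Cdca5 0.78, Smc3 0.78, Esco2 0.70 and Smc1a 0.65), so both SMC arms of cohesin rose as did both of condensin. Of the 3 condensin II genes Ncapg2 was called higher (0.75). A list of 13 CDK1 inhibitors and brakes also held Cks1b and Cks2, which encode CDK-binding cofactors and were not called. Of the 13, 7 were higher (53.8%) and 1 lower (7.69%). The highest were Cdkn1a, which encodes the CDK inhibitor p21 (32.8 to 100.4 CPM, log2 fold change 1.62 ± 0.096 SE, edgeR adjusted p = 6.62e-09), and Gadd45a (1.5). The lowest called were Chek2, a checkpoint kinase (0.64), and the 1 called lower, Wee1, the kinase that holds CDK1 inactive (-1.03). The S phase genes had 15 of 25 higher (60%) and 0 lower, with a median of 0.64 and the highest values in Gins2 (1.36) and Prim1 (1.17). The lowest of its called genes were Mcm6 (0.63) and Rrm1 (0.63), and the lowest gene of the list was Ccne1 (-0.27, not called). The inner kinetochore, S phase, CDK1 brake, cohesin and condensin II lists had larger shares of genes called higher than the 50 members, as counts, with no test of the difference.

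**Figure D5:**
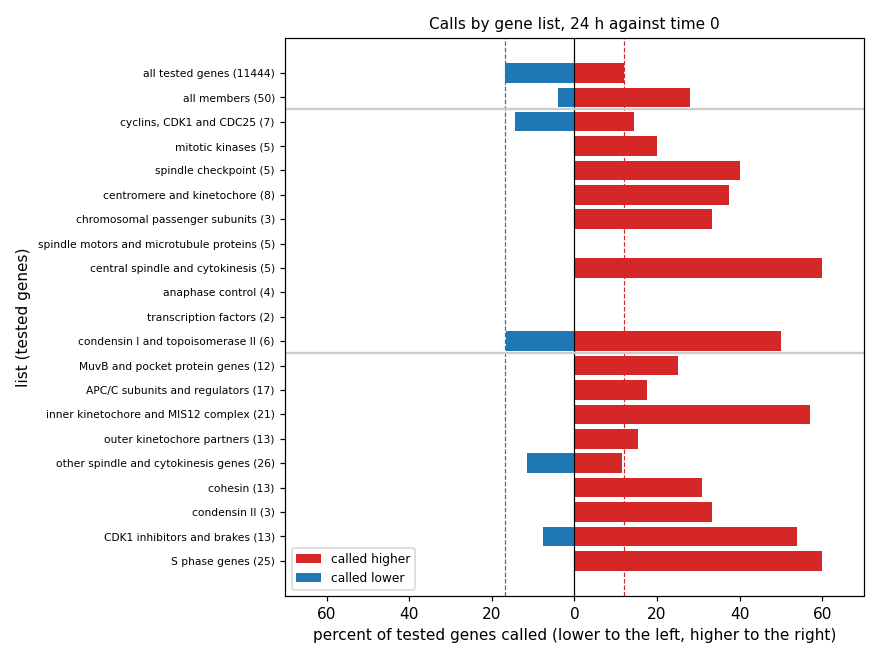
Bars give the percentage of tested genes called higher (right, red) or lower (left, blue) at 24 hours against time 0 in all tested genes, all members, each of their 10 roles and 9 further lists, with the number of tested genes in parentheses; dashed lines repeat the shares over all genes. Central spindle genes among the roles and S phase genes among the further lists reach the farthest right, and Ccnf and Ncaph account for the members' blue bars.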

How the data were processed

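MyC-CaP cells were measured by RNA-Seq in 9 libraries, 3 each at time 0 and after 12 and 24 hours with ASPN. The authors prepared TruSeq mRNA libraries, aligned paired-end reads to GRCm38 with STAR and counted them per gene with featureCounts. The deposited values are raw counts for 15384 protein-coding genes, and neither the choice of these genes nor the strand setting is given in the sources used here. In 8 rows the symbol repeats that of another row, and no member is among them.

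Analyses ran in R 4.3.3. For each comparison of 6 libraries, genes with low counts were removed by filterByExpr, and the rest were tested by quasi-likelihood in edgeR 4.0.16 (TMM factors, no block), with Benjamini-Hochberg adjustment over all tested genes. SE is the SE of the log2 fold change, and CPM in the text is TMM scaled over the 9 libraries. Exon lengths and transcript GC content come from GENCODE M21 (the authors used M24), in which 15374 genes matched by identifier and all 50 members had the same start and end. Promoter sequences are from RefSeq (GRCm38.p6).

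Alternatives were DESeq2 1.42.0, RLE, upper-quartile and library-total scaling, no filter, a minimum of 10 counts per library, a joint fit of the 9 libraries, a block on replicate number, loess correction for length and GC content (span 0.3) with and without the block, the adjusted p alone, and leaving out each library. The fits were tested on simulated data. Chi-square statistics between replicates were 3.41 to 17.5 times their degrees of freedom, above sampling noise, so no library was a copy of another.

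The members and lists were chosen with earlier results of these data known. By rule, values in every library are given for 18 core members and for the 5 highest and 5 lowest members of each comparison, and of the other lists every called gene is named where 5 or fewer were called, otherwise the 2 highest and 2 lowest of those called. Per-library values of other members, the lowest genes of 2 lists that were not called, and gene pairs, were added after the values were seen. Buffer or NRG1 treatments, which the protocol also names, are not among the 9 libraries and were not analysed here. Some marker genes are not reported here.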

Additional observations from a re-analysis of the deposited data

How the results depend on the processing

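At 24 hours against time 0, 9 of the 16 member calls (Ccnf, Bub1, Cenpe, Ndc80, Kif23, Ect2, Ncapg, Ncaph and Smc4) held under all 10 alternative settings, and 15 of 16 under the 6 fits that each left out 1 library (Spc24 was lost). Against 12 hours 10 of 17 held under the settings, and Cenpa and Spc24 were lost without single libraries. Calls lost under a setting were lost with library totals in every case, and for Plk4, Spc24, Cdca8, Mad2l1 and Cenpa also under others. Of the scalings, library totals moved these counts and medians the most, to 7 members called higher, 8 lower and a median of 0.066 at 24 hours against time 0, and 8 higher, 10 called in all and a median of 0.15 against 12 hours. It also turned the sign of Cdk1 (-0.19), Aurka (-0.0048), Nek2 (-0.010), Nuf2 (-0.14), Kif11 (-0.0086), Hmmr (-0.043), Kif20a (-0.023), Ube2c (-0.052) and Ncapd2 (-0.22) against time 0, and of 5 members against 12 hours, Cdk1 (-0.096) among them. Kif4 also turned there with all 9 libraries in one fit. By the adjusted p alone, 5 members were called at 12 hours, all 5 lower, 45 at 24 hours (32 higher, 13 lower) and 46 between 12 and 24 hours (34 higher, 12 lower).

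The length and GC correction, alone and with the block, turned at 24 hours Espl1 (0.044 and 0.047) and Nuf2 (-0.046 and -0.038) against time 0, Espl1 (0.20 and 0.20) and Incenp against 12 hours, and at 12 hours 8 members, among them the core members Bub3 (-0.023 and -0.023), Ndc80 (-0.023 and -0.024) and Smc2 (-0.0086 and -0.0068). At 12 hours 6 members turned with upper-quartile factors, among them Bub3 (-0.0098) and Ndc80 (-0.0028), and 7 with library totals, these among them (-0.016 and -0.0091). At 24 hours Ncapd2 turned without a filter (-0.0046) and with at least 10 counts in every library (-0.0043). Fits without 1 library gave medians of -0.11 to -0.0027 at 12 hours, and moved 19 of the 50 members through 0 at 12 hours, among them the core members Bub3 (-0.037 to 0.036), Ndc80 (-0.066 to 0.077), Knl1 (-0.0066 to 0.11), Kif11 (-0.092 to 0.075), Foxm1 (-0.038 to 0.12) and Smc2 (-0.027 to 0.069), at 24 hours 2 against time 0, Cdk1 (-0.0020 to 0.075) and Ncapd2 (-0.013 to 0.049), and 2 against 12 hours, Spc25 and Kif4. In these values the cause of a turn was not tested.

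A block on replicate number, that is a pairing of same-numbered libraries, gave 14 members called higher and 2 lower at 24 hours against time 0, 15 and 2 against 12 hours and 0 at 12 hours, the same counts as without it, though by the adjusted p alone Ccnb2 at 12 hours no longer passed (edgeR adjusted p = 0.0752). Same-numbered libraries did not deviate together (correlations of -0.11 to 0.057 over all tested genes). These values show no pairing by number, but they cannot tell whether same-numbered wells were handled together. At this depth 3 counts are at most 0.0716 CPM, and every member stood above 3 CPM in every library.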
